A study of Mus musculus with 12 samples.

Results

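Hepa1 cells and MEFs were compared after 4 days in ferroptotic medium. The comparison used 6 of the 12 libraries of the series, 3 per cell type, chosen by their labelled cell type and medium, and all 55487 genes of the count table. Hepa1 is an established mouse hepatoma line, derived from a liver tumour, and is labelled wild type. The MEFs were primary mouse embryonic fibroblasts, a mixed culture of connective tissue cells from embryos, and carried a Bach1 knockout (Bach1-/-). Ferroptotic medium was the supernatant collected after 48 h from immortalised MEFs in which Bach1 had been put back, and control medium, given to the other 6 libraries, came from control immortalised MEFs. The base was DMEM with fetal bovine serum, penicillin-streptomycin and nonessential amino acids. The cells also received 2-mercaptoethanol (0.1 mM) and vitamin E (0.4 mg/mL), and the medium was renewed every day. Cell type, Bach1 genotype and origin as a tumour line or a primary culture divided the libraries in the same way, so they cannot be told apart. The labels do not say that the replicates were separate cultures, so p-values measure the spread between these libraries, which may be technical.

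In ferroptosis cells die when iron drives the peroxidation of their membrane lipids, and the selenoenzyme GPX4 holds it back with glutathione made from imported cystine. BACH1 is a haem-regulated repressor that pairs with small MAF proteins at antioxidant response elements, the same elements through which NRF2 activates genes of haem breakdown, ferritin and glutathione synthesis. Hepatocytes make most plasma proteins and are joined as an epithelium through keratins, desmosomes and tight junctions. Fibroblasts lay down, crosslink and remodel the collagen matrix, and signal to their neighbours with secreted growth factors and chemokines.

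The 6 libraries held 18582713 to 23397981 reads on genes and 19588 to 21374 genes with a read, and 3 reads corresponded to 0.128 to 0.161 CPM, which are counts scaled to the size of the library. Of 15147 genes tested, 13543 (89.4%) were called at an adjusted p under 0.05 in edgeR's quasi-likelihood test, 7149 (47.2%) higher in MEFs and 6394 (42.2%) higher in Hepa1. At least 2-fold differences were called for 4182 genes higher in MEFs (27.6%) and 2790 higher in Hepa1 (18.4%), together 46.0%, and the 3 libraries of one cell type did not overlap those of the other for 13586 genes (89.7%). These shares are the background for every count that follows. Log2 differences are MEFs minus Hepa1, so that a positive value is higher in MEFs, and the standard error follows the ± sign. Their median over all genes tested was 0.08 and the median of their absolute values 0.893. With library totals alone as the scale the median moved to -0.47, 4964 genes were called higher in MEFs and 8902 higher in Hepa1, and differences towards MEFs that were smaller than that shift changed direction.

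Replicate 3 of each cell type held traces of the other. Reads of 57 genes that marked MEFs in control medium stood at 0.0113% and 0.012% of their MEF level in Hepa1 replicates 1 and 2 and at 0.121% in replicate 3 (exact 95% intervals 0.00844 to 0.0148, 0.00896 to 0.0157 and 0.111 to 0.131). Reads of 4 genes that marked Hepa1 (Abcc2, Dsg2, Krt8 and Cldn3) stood at 0.00882%, 0.0175% and 0.118% of their Hepa1 level in MEF replicates 1, 2 and 3 (0.00107 to 0.0319, 0.00476 to 0.0447 and 0.0792 to 0.17). The intervals of replicate 3 did not overlap those of the other replicates. Without replicate 3 of both cell types 13376 genes were called, of which 13145 were among the 13543, and all 13145 kept their direction. Where leaving it out moved the fitted difference of a gene by more than 1.5-fold, a value without it is given beside the first, in the form that the reads left in the lower cell type allow.

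**Figure D1:**
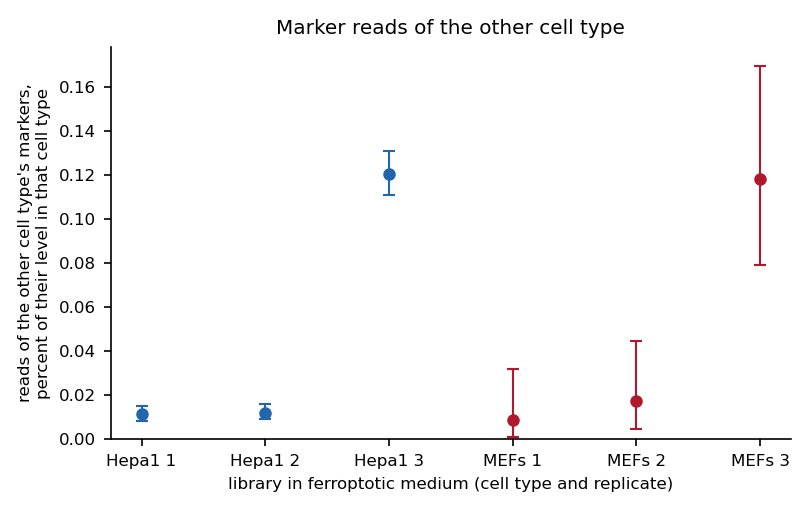
Share of the other cell type's marker level in each of the 6 libraries in ferroptotic medium, in percent, with exact 95% intervals that cover counting error only. Points are libraries, and replicate 3 of Hepa1 (0.121%) and of MEFs (0.118%) sit above the other replicates of their cell type.

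Gene lists are described by their counts and medians. A list member with reads in 1 cell type only passed the count filter through that cell type and so had to differ, and no count of members that passed is read as support. A gene with no read in 1 cell type is given a lower bound, against 3 reads over its 3 libraries (or over the 2 left where replicate 3 is left out), and a gene with 1 to 3 reads there a ratio with its counting interval. Genes that overlap another gene on the opposite strand are marked † at their first mention from here on: how strand was handled in counting is not given in the sources used here, so reads of the overlapping pair cannot be told apart. In CPM the cell types did not overlap for any gene whose reads are given library by library here, with the exception of Klb. Among the fitted differences printed from all 6 libraries with TMM scaling, the largest adjusted p in edgeR's test was that of Bach1 (0.000272).

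More genes were high in MEFs and near 0 in Hepa1 than the reverse. Of the genes tested, 772 stood at 10 CPM or more in MEFs and under 0.2 CPM in Hepa1, whereas 96 stood at 10 CPM or more in Hepa1 and under 0.2 CPM in MEFs. MEF reads were also more concentrated: the 10 genes with most reads took 11.9% to 12.1% of each MEF library and 3.67% to 3.72% of each Hepa1 library. Levels of different genes are compared in TPM, a level per exon length that sums to the same total in every library. The highest nuclear protein-coding genes of MEFs were Mgp, an inhibitor of calcification, at 18162 ± 511 TPM (SD, n = 3), Thbs1†, a matricellular thrombospondin, at 11858 ± 226 TPM, and Col1a1, a chain of type I collagen, at 11706 ± 317 TPM. In Hepa1 they were Eef2, a translation elongation factor, at 10015 ± 149 TPM (SD, n = 3), Hsp90ab1, a cytosolic chaperone, at 4838 ± 20.7 TPM, and Lgals1, a galectin, at 4779 ± 27.8 TPM.

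**Figure D2:**
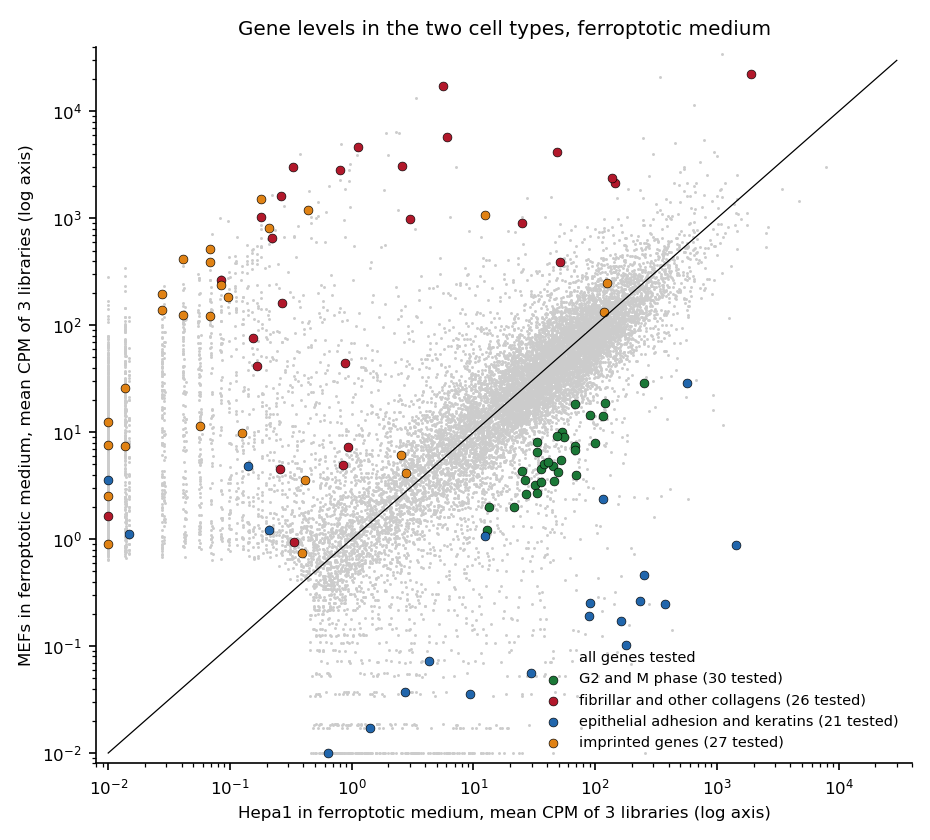
Mean CPM of each tested gene in Hepa1 (horizontal) and MEFs (vertical), both on log axes, with values under 0.01 CPM drawn at 0.01 and colours for 4 gene lists (G2 and M phase, collagens, epithelial genes and imprinted genes). All 30 G2 and M genes lie on the Hepa1 side and all 26 collagens and 27 tested imprinted genes on the MEF side; with library totals as the scale 1 imprinted gene, Gnas, would be called on the Hepa1 side.

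Hepa1 kept a part of the liver's secretory programme. Alb, the gene of albumin, had 5964, 6073 and 6183 reads in Hepa1 and no read in MEFs (at least 4752-fold higher in Hepa1). Afp†, the fetal counterpart of albumin, had 1367, 1233 and 1318 reads in Hepa1 and 1, 0 and 1 in MEFs (1533-fold higher in Hepa1, 95% counting interval 424 to 12662). Trf, the iron carrier transferrin, had 25145, 26092 and 27603 reads in Hepa1 and 252, 205 and 189 in MEFs (-6.58 ± 0.0542). These genes were high in all 3 Hepa1 libraries and near or at 0 in MEFs, except Trf, which MEFs also expressed. Rbp4, the retinol carrier, had 1645, 1584 and 1692 reads in Hepa1 and 2, 3 and 0 in MEFs (-9.50 ± 0.144, and -8.90 without replicate 3 of both). Apoe, which carries lipids and is also made outside the liver, was the other way round, with 42, 42 and 50 reads in Hepa1 and 2822, 2784 and 3164 in MEFs (6.38 ± 0.0667), as was the haemoglobin carrier Hp (6.81 ± 0.306).

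Most genes of the plasma protein list had too few reads to be tested. Of 29 genes, 8 passed the count filter, 5 were called higher in Hepa1 and 3 in MEFs, where 89.4% of all genes tested were called. A further 7 had no read in any of the 6 libraries, among them Ttr, Apoa1 and Apob. The median of the tested members was -4.72, against 0.08 over all genes. Of the liver genes listed, Alb, Afp and Trf were thus present in the line, and Ttr, Apoa1 and Hnf4a were at 0.

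Few enzymes of hepatocyte metabolism passed the count filter. Of 28 genes 5 were tested, 4 were higher in Hepa1, 1 was higher in MEFs, and 10 had no read in any library. Abcc2, the exporter of bilirubin conjugates into bile, had 3681, 3348 and 3690 reads in Hepa1 and 1, 0 and 4 in MEFs (-10.62 ± 0.117, and 5424-fold higher without replicate 3 of both, counting interval 973 to 214266). The bile acid hydroxylase Cyp27a1 had 1549, 1479 and 1592 reads in Hepa1 and 61, 62 and 63 in MEFs (-4.28 ± 0.0748). The urea cycle enzyme Asl was higher in Hepa1 (-1.39 ± 0.0517), and the tyrosine breakdown enzyme Fah was higher in MEFs (1.27 ± 0.0790).

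The 250 bases before the start of Alb and Afp are shown because these neighbouring genes carried large liver-type differences. The windows come from RefSeq on GRCm38.p6, Alb at chr5:90460620-90460869, plus strand, and Afp at chr5:90490464-90490713, plus strand, written 5′ to 3′ on the strand of the gene. Capitals mark GTTAAT or its other strand ATTAAC, the letters of a part of an HNF1 site and not of the whole site.
Alb: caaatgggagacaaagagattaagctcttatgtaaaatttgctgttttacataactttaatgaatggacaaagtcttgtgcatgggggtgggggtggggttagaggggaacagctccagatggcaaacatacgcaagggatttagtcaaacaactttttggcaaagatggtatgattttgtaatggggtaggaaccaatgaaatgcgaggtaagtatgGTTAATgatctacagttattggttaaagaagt
Afp: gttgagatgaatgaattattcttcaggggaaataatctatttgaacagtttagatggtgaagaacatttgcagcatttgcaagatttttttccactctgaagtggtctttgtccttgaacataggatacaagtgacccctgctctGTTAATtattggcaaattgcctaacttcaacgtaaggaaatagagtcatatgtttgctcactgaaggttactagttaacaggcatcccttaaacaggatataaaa
The same letters were in 8 of 28 windows of the plasma protein list (28.6%, 24 of 29 genes matched) and in 6.43% of all 32851 windows of that length. TGTTTAC or GTAAACA, the letters of a FOXA site, were in 3 of the 28 windows (10.7%) and in 3.17% of all windows. These are matches of letters and no measure of binding.

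Liver transcription factors were split between the cell types. The pioneer factor Foxa1 had 1019, 1011 and 1068 reads in Hepa1 and 30, 30 and 45 in MEFs (-4.53 ± 0.0950). Its relative Foxa2 had 381, 369 and 341 reads in Hepa1 and 0, 1 and 0 in MEFs (854-fold higher in Hepa1, 95% counting interval 153 to 33749). Members of the GATA and C/EBP families were found on both sides. Gata4 had 1297, 1328 and 1367 reads in Hepa1 and 0, 1 and 2 in MEFs (1041-fold higher in Hepa1, 95% counting interval 356 to 5051, and 2026-fold higher without replicate 3 of both, counting interval 363 to 80037), whereas Gata6† had 1, 0 and 1 reads in Hepa1 and 434, 466 and 461 in MEFs (869.7-fold higher in MEFs, 95% counting interval 240.3 to 7188). Cebpb† had 7154, 6825 and 7247 reads in Hepa1 and 1159, 1075 and 1192 in MEFs (-2.28 ± 0.0350), and Cebpa† had 0, 1 and 0 reads in Hepa1 and 1133, 1056 and 1221 in MEFs (4358-fold higher in MEFs, 95% counting interval 782 to 172181). Of 22 listed factors 12 were tested, 8 higher in Hepa1 and 4 in MEFs, and 3, among them Hnf4a, had no read in any library. The median was -1.67 in ferroptotic and -0.75 in control medium.

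Genes of xenobiotic metabolism were mostly higher in Hepa1, 11 of 15 tested (of 22 listed), with 4 higher in MEFs. Cyp1a1, an oxidase induced through the aryl hydrocarbon receptor, had 1711, 1654 and 1686 reads in Hepa1 and 0, 0 and 2 in MEFs (1976-fold higher in Hepa1, 95% counting interval 547 to 16322, and at least 866-fold higher without replicate 3 of both). The receptor itself, Ahr†, had 3341, 3149 and 3289 reads in Hepa1 and 381, 358 and 353 in MEFs (-2.81 ± 0.0460), and its dimer partner Arnt was higher in MEFs (0.78 ± 0.0345). The related oxidase Cyp1b1 went the other way from Cyp1a1, with 124, 156 and 176 reads in Hepa1 and 18180, 18772 and 19690 in MEFs (7.31 ± 0.0522). Aldh1a1†, which oxidises retinal, had 16036, 15451 and 16021 reads in Hepa1 and 517, 523 and 684 in MEFs (-4.43 ± 0.0423). The glutathione transferase Gsta3† had 814, 759 and 785 reads in Hepa1 and 12, 3 and 5 in MEFs (-6.50 ± 0.146), with close relatives that make its reads uncertain.

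Hepa1 had the keratins and junction genes of an epithelium, with almost no read of E-cadherin. Krt18, a simple-epithelium keratin, had 34306, 32875 and 34646 reads in Hepa1 and 2, 2 and 47 in MEFs (-10.60 ± 0.0962, and -13.59 without replicate 3 of both). Its partner Krt8† had 8925, 8775 and 8940 reads in Hepa1 and 0, 4 and 10 in MEFs (-10.51 ± 0.0923, and -11.66 without replicate 3 of both). The desmosomal cadherin Dsg2† had 4211, 4034 and 4329 reads in Hepa1 and 0, 0 and 6 in MEFs (-10.60 ± 0.115, and at least 2121-fold higher without replicate 3 of both). All 3 were high in every Hepa1 library and had their highest MEF value in replicate 3. The tight junction gene Cldn3† had 3887, 3691 and 3946 reads in Hepa1 and 1, 0 and 9 in MEFs (-9.77 ± 0.111, and 5848-fold higher without replicate 3 of both, counting interval 1049 to 230999), and Jup, plakoglobin, was expressed in both with 13315, 12769 and 13802 reads in Hepa1 and 530, 524 and 549 in MEFs (-4.28 ± 0.0392). Of 38 listed genes 21 were tested, 17 higher in Hepa1 and 4 in MEFs (median -6.75, or -6.04 with genes at 0 reads set at their bounds and -7.79 without replicate 3 of both cell types). Cdh1, the E-cadherin gene, chosen after its values were seen, had 1, 0 and 1 reads in Hepa1 and 3, 3 and 5 in MEFs.

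Several genes with large differences towards Hepa1 were in none of these lists. The cell adhesion gene Igsf11 had 2146, 1970 and 2053 reads in Hepa1 and 0, 0 and 3 in MEFs (1609-fold higher in Hepa1, 95% counting interval 550.3 to 7804, and at least 1059-fold higher without replicate 3 of both). The homeobox gene Rhox5 had 1804, 1723 and 1892 reads in Hepa1 and 0, 0 and 1 in MEFs (4240.2-fold higher in Hepa1, 95% counting interval 761 to 167510, and at least 907-fold higher without replicate 3 of both). H2-Q1, a class I histocompatibility gene whose close relatives make its reads uncertain, had 10248, 9935 and 10298 reads in Hepa1 and 2, 1 and 5 in MEFs (-11.48 ± 0.0903, and 5191-fold higher without replicate 3 of both, counting interval 1776 to 25176). Others were expressed in both cell types, with the lowest Hepa1 library far above the highest MEF library. Itga3, an integrin that binds laminins, had 21942, 20895 and 23021 reads in Hepa1 and 422, 368 and 444 in MEFs (-5.38 ± 0.0437). Alad, an enzyme of haem synthesis, had 21796, 21592 and 22358 reads in Hepa1 and 271, 309 and 317 in MEFs (-5.84 ± 0.0455). Cxadr†, a junctional adhesion gene, had 9243, 8587 and 9436 reads in Hepa1 and 214, 232 and 284 in MEFs (-4.87 ± 0.0460).

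MEFs carried the transcription factors of mesenchyme, and Hepa1 had few or no reads of most of them. Foxd1, a forkhead factor of stromal progenitors, had no read in Hepa1 and 2196, 2168 and 2414 in MEFs (at least 2887-fold higher in MEFs). The homeobox gene Meox2 had no read in Hepa1 and 471, 429 and 530 in MEFs (at least 609-fold higher in MEFs). Snai2, a repressor of epithelial genes, had 0, 1 and 0 reads in Hepa1 and 1970, 2007 and 2109 in MEFs (7778-fold higher in MEFs, 95% counting interval 1395 to 307261). Of 50 listed factors 39 were tested, 37 were called higher in MEFs and 2 in Hepa1, with a median of 9.28 (8.81 with bounds), and 2 had no read. The exceptions were the T-box repressor Tbx3†, with 6350, 5980 and 6572 reads in Hepa1 and 46, 37 and 50 in MEFs (-6.79 ± 0.0624), and Tead2†, a Hippo pathway factor (-1.33 ± 0.0437).

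Hox genes, which give cells their position along the body, were mostly on the MEF side. Hoxa7† had no read in Hepa1 and 507, 501 and 536 in MEFs (at least 658-fold higher in MEFs). Hoxa5† had 33, 34 and 39 reads in Hepa1 and 616, 562 and 641 in MEFs (4.45 ± 0.102). Hoxb4 had 17, 12 and 7 reads in Hepa1 and 647, 659 and 698 in MEFs (6.14 ± 0.125). Of 39 Hox genes 21 were tested, 16 were called higher in MEFs and 3 in Hepa1, and 6 had no read in any library. The 3 higher in Hepa1 were Hoxa10, Hoxb13 and Hoxc9. Hoxa10 had 447, 378 and 432 reads in Hepa1 and 16, 20 and 12 in MEFs (-4.35 ± 0.143), and Hoxb13 had 206, 194 and 185 reads in Hepa1 and 0, 0 and 1 in MEFs (458-fold higher in Hepa1, 95% counting interval 81.8 to 18110.5, and at least 103-fold higher without replicate 3 of both). Hoxc9, chosen after its values were seen, had 25, 24 and 17 reads in Hepa1 and 0, 1 and 0 in MEFs (51.6-fold higher in Hepa1, 95% counting interval 8.95 to 2070.3).

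All 26 collagen genes listed were tested and all 26 were called higher in MEFs, with a median of 8.23 (8.12 with bounds). Col1a1 had 45014, 41555 and 47394 reads in Hepa1 and 415278, 399125 and 432568 in MEFs (3.57 ± 0.0476), with an adjusted p of 1.14e-66. Its partner chain Col1a2 had 23, 19 and 368 reads in Hepa1 and 310396, 310602 and 325671 in MEFs (11.53 ± 0.164, and 14.21 without replicate 3 of both). Hepa1 thus had reads of one type I chain and few of the other, and its replicate 3 was far above replicates 1 and 2 for Col1a2. Col2a1, the main collagen of cartilage, had 8, 13 and 59 reads in Hepa1 and 81893, 84033 and 93272 in MEFs (12.01 ± 0.0904, and 13.30 without replicate 3 of both). Col11a1, its fibril partner, had 0, 1 and 23 reads in Hepa1 and 53564, 56844 and 56989 in MEFs (13.10 ± 0.0975, and 143079-fold higher without replicate 3 of both, counting interval 25679 to 5651360). Col12a1†, which decorates fibrils, was expressed in both, with 1176, 1104 and 1164 reads in Hepa1 and 74864, 76416 and 77496 in MEFs (6.41 ± 0.0463).

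Genes that fold and crosslink collagen were less uniform. Serpinh1, the collagen chaperone HSP47, had 5, 7 and 56 reads in Hepa1 and 50807, 50091 and 54732 in MEFs (11.51 ± 0.0926, and 13.38 without replicate 3 of both). The lysyl oxidase Loxl1 had 0, 0 and 10 reads in Hepa1 and 10097, 9798 and 10965 in MEFs (11.89 ± 0.0941, and at least 8594-fold higher without replicate 3 of both). The lysyl hydroxylase Plod2† had 0, 0 and 8 reads in Hepa1 and 6667, 7026 and 7454 in MEFs (11.65 ± 0.0974, and at least 5915-fold higher without replicate 3 of both). In each of these most Hepa1 reads were in replicate 3. Another lysyl oxidase, Loxl4, was higher in Hepa1, with 4102, 3754 and 3994 reads in Hepa1 and 218, 199 and 268 in MEFs (-3.76 ± 0.05), as was the procollagen protease enhancer Pcolce2† (-2.58 ± 0.17). Of 23 genes, all tested, 19 were higher in MEFs and 3 in Hepa1 (median 2.14).

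Matrix glycoproteins and proteoglycans were mostly on the side of the collagens, with exceptions. Eln†, elastin, had no read in Hepa1 and 2706, 2961 and 2965 in MEFs (at least 3677-fold higher in MEFs). Postn, periostin, had 0, 5 and 22 reads in Hepa1 and 69720, 74758 and 78068 in MEFs (13.34 ± 0.0936, and 15.11 without replicate 3 of both). The fibrillin gene Fbn2 had 0, 0 and 3 reads in Hepa1 and 6579, 6489 and 6929 in MEFs (8519-fold higher in MEFs, 95% counting interval 2915 to 41312, and at least 5645-fold higher without replicate 3 of both). Dcn, decorin, a proteoglycan usually abundant in fibroblasts, was higher in all 3 Hepa1 libraries, with 6788, 6507 and 6296 reads in Hepa1 and 292, 318 and 267 in MEFs (-4.13 ± 0.0490). Lamb3†, a chain of epithelial laminin, had 164, 183 and 188 reads in Hepa1 and 4, 6 and 6 in MEFs (-4.68 ± 0.224). Of 43 listed genes 42 were tested, 35 higher in MEFs and 7 in Hepa1 (median 9.38, or 8.83 with bounds).

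Of 31 proteases and inhibitors 27 were tested, 24 higher in MEFs and 3 in Hepa1. Mmp2, a gelatinase, had 3, 5 and 51 reads in Hepa1 and 90821, 90016 and 95964 in MEFs (12.54 ± 0.0986, and 14.79 without replicate 3 of both). The membrane protease Mmp16† had no read in Hepa1 and 1101, 1226 and 1205 in MEFs (at least 1505-fold higher in MEFs). Plaur, the urokinase receptor, was the other way, with 875, 771 and 851 reads in Hepa1 and 38, 35 and 42 in MEFs (-4.08 ± 0.0967). Contractile and actin genes, 28 listed and 27 tested, were called higher in MEFs for 21 and in Hepa1 for 5 (median 1.94). Acta2, smooth muscle actin, had 1, 0 and 13 reads in Hepa1 and 6322, 6201 and 6588 in MEFs (10.73 ± 0.0953, and 16229-fold higher without replicate 3 of both, counting interval 2912 to 641049). Myl9, a regulatory myosin light chain, had 5, 4 and 3 reads in Hepa1 and 1672, 1660 and 1617 in MEFs (8.99 ± 0.118). The muscle intermediate filament gene Des† was higher in Hepa1, with 523, 546 and 602 reads in Hepa1 and 3, 7 and 6 in MEFs (-6.32 ± 0.165).

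**Figure D3:**
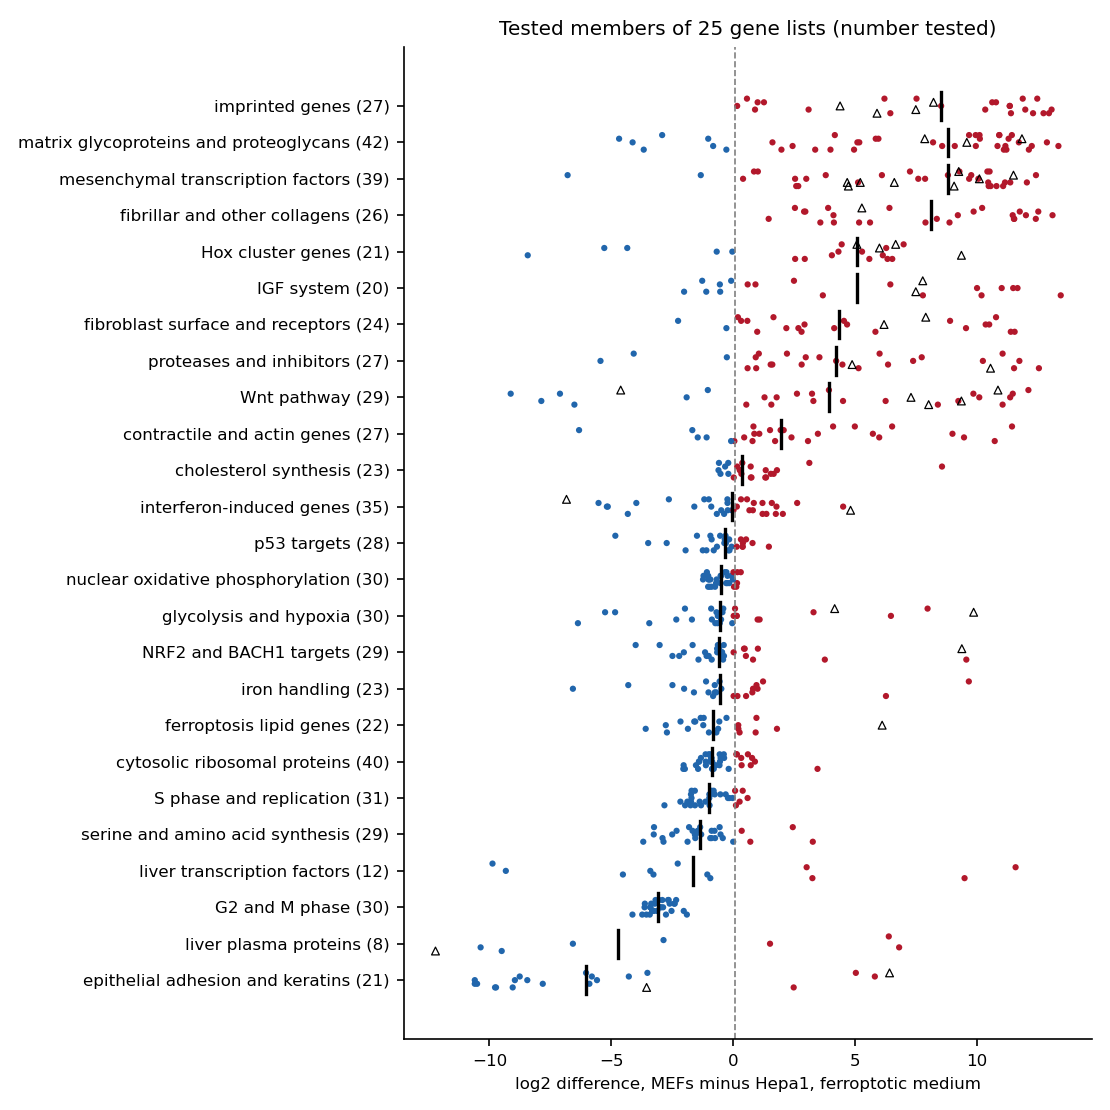
Log2 difference (MEFs minus Hepa1, horizontal) of the tested members of 25 gene lists. Red points were higher in MEFs and blue points higher in Hepa1, whether called or not. Open triangles are bounds of genes with no read in 1 cell type. Bars are list medians with bounds and the dashed line is the median of all genes (0.08). Collagens and imprinted genes lie to the right and G2 and M genes to the left. With library totals as the scale the points would lie further left, and the median of cholesterol genes (-0.17) would be below 0.

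Surface receptors differed in kind between the cell types. Nrp1, a co-receptor of VEGF and semaphorins, had no read in Hepa1 and 2925, 3154 and 3342 in MEFs (at least 4013-fold higher in MEFs). Fap, a protease that marks activated fibroblasts, had no read in Hepa1 and 180, 196 and 184 in MEFs (at least 239-fold higher in MEFs). Boc, a Hedgehog co-receptor, had 0, 0 and 1 reads in Hepa1 and 6141, 6097 and 6736 in MEFs (24249-fold higher in MEFs, 95% counting interval 4352 to 957826, and at least 5286-fold higher without replicate 3 of both). Hepa1 was at or near 0 for these and for some growth factor receptors. Fgfr1† had 0, 2 and 10 reads in Hepa1 and 9941, 9879 and 10777 in MEFs (11.62 ± 0.0882, and 12842-fold higher without replicate 3 of both, counting interval 3555 to 106052). Fgfr2† had 40, 22 and 39 reads in Hepa1 and 6248, 6196 and 6613 in MEFs (7.91 ± 0.0642). Ghr, the growth hormone receptor, had 16, 12 and 13 reads in Hepa1 and 2970, 3171 and 3269 in MEFs (8.18 ± 0.0802). Other receptors were higher in all 3 Hepa1 libraries. Erbb3, a partner of HER2 that binds neuregulins, had 1556, 1456 and 1633 reads in Hepa1 and 2, 2 and 4 in MEFs (-8.77 ± 0.134). The ephrin receptor Epha2 had 9228, 8635 and 9295 reads in Hepa1 and 1039, 1059 and 1105 in MEFs (-2.73 ± 0.0347). The hyaluronan receptor Cd44† had 3031, 2892 and 2973 reads in Hepa1 and 492, 483 and 476 in MEFs (-2.26 ± 0.0438). Of 27 growth factor receptors 21 were tested, 14 higher in MEFs and 7 in Hepa1. Of 26 fibroblast surface genes 24 were tested, 22 higher in MEFs and 2 in Hepa1.

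Secreted growth factors were mostly on the MEF side, 25 of 35 tested (of 36 listed), with 7 higher in Hepa1. Fgf10†, a mesenchymal signal to epithelia, had no read in Hepa1 and 562, 570 and 609 in MEFs (at least 742-fold higher in MEFs). Fgf7†, with a like role, had 0, 1 and 8 reads in Hepa1 and 6315, 6627 and 6690 in MEFs (11.38 ± 0.0958, and 16772-fold higher without replicate 3 of both, counting interval 3009.7 to 662496). Gdf10, a TGF-beta family ligand, had no read in Hepa1 and 1377, 1312 and 1409 in MEFs (at least 1746-fold higher in MEFs). Hepa1 expressed other ligands in all 3 libraries. Pdgfb†, a ligand of the PDGF receptors, had 696, 704 and 759 reads in Hepa1 and 2, 4 and 8 in MEFs (-6.88 ± 0.157). Fgf1† had 700, 731 and 800 reads in Hepa1 and 14, 12 and 20 in MEFs (-5.24 ± 0.124).

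The title of the series names FGF21, a hormone of the liver and of stressed cells. Fgf21 had 2, 1 and 0 reads in Hepa1 and 11, 15 and 25 in MEFs (21.7-fold higher in MEFs, 95% counting interval 7.03 to 109, and 11.2-fold higher without replicate 3 of both, counting interval 3.44 to 58.0), a low level in both cell types. Klb, the gene of its co-receptor, had 2, 0 and 0 reads in Hepa1 and 0, 0 and 0 in MEFs, too few to compare. Gdf15, another stress-induced hormone, had 3127, 2741 and 2979 reads in Hepa1 and 595, 561 and 731 in MEFs (-1.88 ± 0.0444).

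Genes of the Wnt pathway were found on both sides. Of 38 listed genes 29 were tested, 22 higher in MEFs and 7 in Hepa1. The ligand gene Wnt11† had no read in Hepa1 and 1410, 1341 and 1611 in MEFs (at least 1858-fold higher in MEFs). The decoy receptor Frzb had no read in Hepa1 and 526, 517 and 499 in MEFs (at least 657-fold higher in MEFs). Sfrp2†, another secreted inhibitor, had 0, 1 and 3 reads in Hepa1 and 4813, 5092 and 5382 in MEFs (12.11 ± 0.102, and 12836-fold higher without replicate 3 of both, counting interval 2303 to 507045). Feedback genes that beta-catenin switches on were divided. Rnf43†, a ligase that removes Wnt receptors, had 4425, 4548 and 4892 reads in Hepa1 and 14, 14 and 18 in MEFs (-7.87 ± 0.0813). Sp5, a zinc finger target, had 4609, 4434 and 5001 reads in Hepa1 and 0, 0 and 4 in MEFs (-11.31 ± 0.117, and at least 2326-fold higher without replicate 3 of both). Axin2†, chosen after its values were seen, had 9816, 9321 and 9988 reads in Hepa1 and 46, 56 and 63 in MEFs (-7.11 ± 0.0579). These 3 were high in every Hepa1 library, whereas Nkd1, another feedback gene, had 0, 1 and 2 reads in Hepa1 and 2496, 2399 and 2684 in MEFs (3229-fold higher in MEFs, 95% counting interval 1104 to 15659.6, and 6343-fold higher without replicate 3 of both, counting interval 1138 to 250604). Among ligands, Wnt10a had 325, 314 and 311 reads in Hepa1 and 0, 0 and 1 in MEFs (743-fold higher in Hepa1, 95% counting interval 133 to 29391, and at least 164-fold higher without replicate 3 of both).

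Members of the insulin-like growth factor system were called in both directions, more of them in MEFs. Igfbp5, a binding protein, had 3, 0 and 3 reads in Hepa1 and 18230, 18905 and 18429 in MEFs (13.43 ± 0.0929). Igfbp2, another, had 4, 6 and 128 reads in Hepa1 and 109734, 112714 and 128859 in MEFs (11.66 ± 0.124, and 14.77 without replicate 3 of both). Pappa, the protease that cuts binding proteins, had 0, 1 and 12 reads in Hepa1 and 9816, 9754 and 10509 in MEFs (11.48 ± 0.0904, and 25361-fold higher without replicate 3 of both, counting interval 4551 to 1001750). The receptor gene Igf1r had 2, 0 and 9 reads in Hepa1 and 6015, 6003 and 6452 in MEFs (11.01 ± 0.0923, and 7787-fold higher without replicate 3 of both, counting interval 2155 to 64308). Hepa1 replicate 3 held most of the Hepa1 reads of Igfbp2, Pappa and Igf1r. The mRNA-binding Igf2bp1† was higher in Hepa1 (-1.27 ± 0.0460), as was Igfbp6 (-2.02 ± 0.106). Of 21 listed genes 20 were tested, 13 higher in MEFs and 6 in Hepa1.

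Imprinted genes, which are expressed from the copy of one parent and of which many act in the embryo, were higher in MEFs. Of 34 listed genes 27 were tested and all 27 were called higher in MEFs, and 2 had no read in any library. Their median was 10.34 (8.53 with bounds, and 10.98 without replicate 3 of both cell types). Peg3, a zinc finger gene, had 0, 0 and 13 reads in Hepa1 and 27316, 27607 and 28215 in MEFs (12.95 ± 0.0942, and at least 23725-fold higher without replicate 3 of both). Dlk1, a Notch-related surface protein, had 0, 0 and 5 reads in Hepa1 and 9299, 9407 and 10070 in MEFs (12.73 ± 0.0947, and at least 8080.4-fold higher without replicate 3 of both). The long RNA H19† had 1, 0 and 4 reads in Hepa1 and 7043, 7595 and 6690 in MEFs (12.30 ± 0.115, and 18969.5-fold higher without replicate 3 of both, counting interval 3404 to 749306). In Hepa1 replicates 1 and 2 these genes had at most 1 read. Igf2† had no read in Hepa1 and 154, 131 and 137 in MEFs (at least 179.8-fold higher in MEFs). Dio3, which inactivates thyroid hormone, had 0, 0 and 2 reads in Hepa1 and 3572, 3412 and 3777 in MEFs (6876-fold higher in MEFs, 95% counting interval 1903 to 56787, and at least 3017-fold higher without replicate 3 of both). Igf2r†, which clears IGF2, was expressed in both, with 279, 246 and 351 reads in Hepa1 and 19594, 19255 and 20883 in MEFs (6.45 ± 0.0486). With library totals as the scale 24 of the 27 were called higher in MEFs and 1 higher in Hepa1, the broadly expressed Gnas† (chosen after its values were seen, 2682, 2643 and 3036 reads in Hepa1 and 2371, 2276 and 2674 in MEFs).

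**Figure D4:**
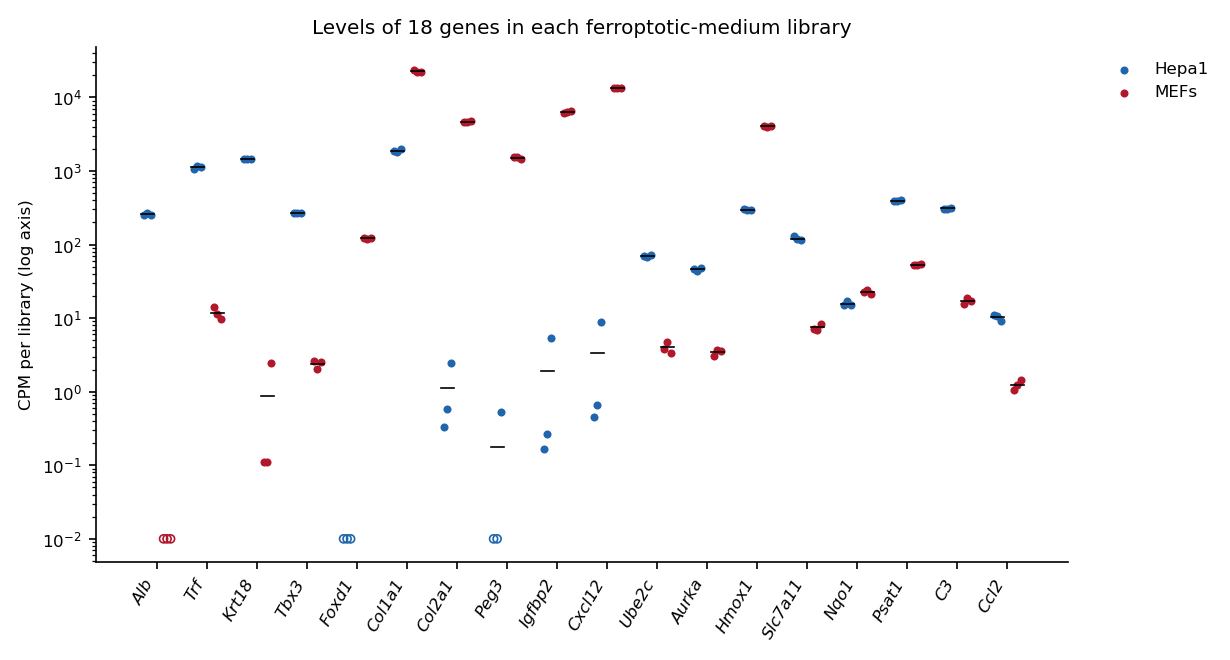
CPM of 18 genes in each of the 6 libraries, on log axes; blue circles are Hepa1, red circles MEFs, bars are means of the 3 libraries and open circles at the bottom are libraries with no read. The cell types do not overlap for any of the 18 genes (the order of Nqo1 turns with library totals as the scale), and replicate 3 of Hepa1 stands above the other Hepa1 replicates for Col2a1, Peg3, Igfbp2 and Cxcl12.

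Every mitotic gene listed was higher in Hepa1. All 30 G2 and M genes were called, 30 of them at least 2-fold higher in Hepa1, with a median of -3.08 against -1.72 in control medium. Ube2c†, which feeds the anaphase-promoting complex, had 1657, 1548 and 1760 reads in Hepa1 and 69, 86 and 66 in MEFs (-4.13 ± 0.0740), with an adjusted p of 3.65e-58. The mitotic kinase gene Aurka had 1126, 997 and 1146 reads in Hepa1 and 55, 67 and 70 in MEFs (-3.73 ± 0.0823). The kinetochore motor gene Cenpe had 2346, 2150 and 2538 reads in Hepa1 and 124, 173 and 145 in MEFs (-3.64 ± 0.0624). All 3 Hepa1 libraries were far above every MEF library in these genes. Birc5, survivin, had 744, 745 and 850 reads in Hepa1 and 45, 50 and 53 in MEFs (-3.63 ± 0.0946). The cycling-cell marker Mki67† had 1583, 1472 and 1798 reads in Hepa1 and 333, 352 and 330 in MEFs (-1.90 ± 0.0555). In bulk RNA, fewer dividing cells and less of these RNAs per cell cannot be told apart. All 30 were also called higher in Hepa1 without replicate 3 of both and with library totals as the scale.

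The windows of 4 of these genes are shown because the whole list was on one side, with CCAAT or ATTGG (the CCAAT box) and TTTGAA or TTCAAA (the CHR element) in capitals. They come from RefSeq on GRCm38.p6: Ube2c at chr2:164769679-164769928, plus strand, Aurka at chr2:172370571-172370820, minus strand, Cenpe at chr3:135212313-135212562, plus strand, and Birc5 at chr11:117848987-117849236, plus strand. In Ube2c a CCAAT and an ATTGG share bases, so that they form a single stretch of capitals.
Ube2c: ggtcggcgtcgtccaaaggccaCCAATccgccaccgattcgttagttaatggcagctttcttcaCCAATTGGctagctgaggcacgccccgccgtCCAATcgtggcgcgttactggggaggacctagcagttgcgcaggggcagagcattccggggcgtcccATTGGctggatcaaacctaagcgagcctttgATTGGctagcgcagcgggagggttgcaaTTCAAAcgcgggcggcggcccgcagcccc
Aurka: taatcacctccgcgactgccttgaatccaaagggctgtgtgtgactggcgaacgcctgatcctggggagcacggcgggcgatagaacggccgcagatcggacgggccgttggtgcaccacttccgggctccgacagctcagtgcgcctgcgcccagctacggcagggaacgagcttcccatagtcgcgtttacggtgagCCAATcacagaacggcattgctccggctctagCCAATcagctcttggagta
Cenpe: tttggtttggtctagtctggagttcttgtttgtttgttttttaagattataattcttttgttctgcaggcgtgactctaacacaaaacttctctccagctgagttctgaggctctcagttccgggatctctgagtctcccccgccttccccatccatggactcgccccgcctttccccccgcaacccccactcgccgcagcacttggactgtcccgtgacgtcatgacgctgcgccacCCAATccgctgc
Birc5: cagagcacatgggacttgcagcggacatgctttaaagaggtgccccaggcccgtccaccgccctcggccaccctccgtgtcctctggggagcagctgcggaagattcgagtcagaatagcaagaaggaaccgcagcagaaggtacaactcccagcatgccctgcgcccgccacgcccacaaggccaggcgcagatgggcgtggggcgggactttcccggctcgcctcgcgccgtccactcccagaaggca
The CCAAT letters were in 21 of 26 windows of the list (80.8%, 25 of 30 genes matched) and in 33.8% of all 32851 windows. The CHR letters were in 8 of the 26 (30.8%) and in 16% of all windows. The Birc5 window held neither.

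Replication genes were mostly higher in Hepa1 as well. Of 31 S phase genes, all tested, 25 were higher in Hepa1 and 3 in MEFs, with a median of -0.98. The licensing factor Cdt1 had 1283, 1190 and 1261 reads in Hepa1 and 135, 128 and 150 in MEFs (-2.82 ± 0.0662). Cdc45†, part of the replication helicase, had 252, 262 and 278 reads in Hepa1 and 58, 56 and 54 in MEFs (-1.88 ± 0.117). The helicase subunit Mcm4 was higher in MEFs, with 745, 688 and 750 reads in Hepa1 and 804, 874 and 892 in MEFs (0.59 ± 0.0495). The thymidylate synthase gene Tyms had 244, 265 and 248 reads in Hepa1 and 252, 249 and 275 in MEFs (0.39 ± 0.0819), a direction that turned with library totals as the scale (-0.15), where 0 of the S phase genes were called higher in MEFs and 29 in Hepa1.

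Inhibitors of the cell cycle were found on both sides. Cdkn2a, which encodes p16 and ARF, had 0, 0 and 2 reads in Hepa1 and 1768, 1625 and 1973 in MEFs (3429-fold higher in MEFs, 95% counting interval 949 to 28321, and at least 1466-fold higher without replicate 3 of both). Its neighbour Cdkn2b had 0, 0 and 1 reads in Hepa1 and 832, 806 and 945 in MEFs (3301-fold higher in MEFs, 95% counting interval 592 to 130435, and at least 708-fold higher without replicate 3 of both). Cdkn1a†, which encodes p21, was expressed in both, with 14218, 13376 and 14777 reads in Hepa1 and 8517, 8440 and 9464 in MEFs (-0.33 ± 0.0302). Lmnb1, a lamin that is lost in senescent cells, had 2022, 1916 and 2171 reads in Hepa1 and 258, 249 and 241 in MEFs (-2.67 ± 0.0541). The telomerase gene Tert had 389, 442 and 438 reads in Hepa1 and 106, 94 and 96 in MEFs (-1.75 ± 0.0947). Of 17 listed genes, all tested, 8 were higher in MEFs and 9 in Hepa1.

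Targets of p53 were mostly higher in Hepa1, 20 of 28, with 8 higher in MEFs (25 and 2 with library totals as the scale). Their median was -0.33. The p53 ligase gene Mdm2 had 14191, 12963 and 14106 reads in Hepa1 and 2597, 2721 and 3015 in MEFs (-1.95 ± 0.0321). The death gene Pmaip1 had 3583, 3241 and 3627 reads in Hepa1 and 221, 251 and 256 in MEFs (-3.49 ± 0.0489). Trp53 itself had 4401, 4115 and 4468 reads in Hepa1 and 1214, 1241 and 1416 in MEFs (-1.39 ± 0.0349). Each of these was higher in all 3 Hepa1 libraries, while the adenylate kinase gene Ak1 (1.46 ± 0.0323) and the RNA-binding Zmat3 (0.79 ± 0.0302) were higher in MEFs. The change of the gap, that is, the difference between the cell types in ferroptotic medium minus that in control medium, was towards MEFs for 20 of these genes and towards Hepa1 for 3. Over all 15627 genes tested for it, 20.9% were called towards MEFs and 23.3% towards Hepa1.

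Haem oxygenase and cystine import, both under BACH1 and NRF2 control, differed in opposite directions. Hmox1, which breaks down haem, had 7396, 6672 and 7023 reads in Hepa1 and 72119, 71296 and 79907 in MEFs (3.76 ± 0.0390), with an adjusted p of 8.66e-74. Per length it was the seventh highest nuclear protein-coding gene of MEFs, at 7851 ± 148 TPM against 720.4 ± 30.5 TPM in Hepa1 (SD, n = 3). Slc7a11†, the cystine transporter, had 3101, 2653 and 2754 reads in Hepa1 and 127, 125 and 163 in MEFs (-4.00 ± 0.0613). Ftl1†, a ferritin chain whose close relatives make its reads uncertain, had 569, 536 and 501 reads in Hepa1 and 64, 75 and 84 in MEFs (-2.49 ± 0.0952). Exporters of glutathione conjugates and other anions were also divided. Abcc1 had 2, 1 and 10 reads in Hepa1 and 2531, 2657 and 2750 in MEFs (9.56 ± 0.105, and 2241-fold higher without replicate 3 of both, counting interval 766 to 10871). Abcc4† had 4395, 4153 and 4391 reads in Hepa1 and 692, 712 and 776 in MEFs (-2.22 ± 0.0379). The carbonyl reductase gene Cbr3 had no read in Hepa1 and 494, 524 and 544 in MEFs (at least 665-fold higher in MEFs), and the biliverdin reductase gene Blvrb was higher in Hepa1 (-3.02 ± 0.0430).

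Of 30 listed NRF2 and BACH1 targets 29 were tested, 20 were higher in Hepa1 and 7 in MEFs, with a median of -0.57 in ferroptotic and -1.19 in control medium. The gap of 20 of them changed towards MEFs and that of 5 towards Hepa1 (18 and 5 without replicate 3 of both). Nqo1, a quinone reductase, had 361, 383 and 369 reads in Hepa1 and 409, 432 and 408 in MEFs (0.52 ± 0.0684), but -0.02 with library totals as the scale, after -1.48 in control medium. Its gap changed by 2.00 ± 0.0977 (adjusted p 1.50e-21), with -1.10 from the medium in Hepa1 and 0.90 in MEFs. For Slc7a11 the gap changed by 2.79 ± 0.172 (-2.02 in Hepa1 and 0.78 in MEFs). For Hmox1 it changed by 1.81 ± 0.0548 (-1.04 in Hepa1 and 0.77 in MEFs).

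The window of Gclm†, the modifier subunit of glutamate-cysteine ligase, is shown because it holds a match to the core of the antioxidant response element, TGACNNNGC or GCNNNGTCA on the other strand, in capitals (RefSeq, GRCm38.p6, chr3:122245307-122245556, plus strand). Gclm, chosen after its values were seen, had 4250, 3751 and 3952 reads in Hepa1 and 1922, 1952 and 2039 in MEFs (-0.66 ± 0.0340).
Gclm: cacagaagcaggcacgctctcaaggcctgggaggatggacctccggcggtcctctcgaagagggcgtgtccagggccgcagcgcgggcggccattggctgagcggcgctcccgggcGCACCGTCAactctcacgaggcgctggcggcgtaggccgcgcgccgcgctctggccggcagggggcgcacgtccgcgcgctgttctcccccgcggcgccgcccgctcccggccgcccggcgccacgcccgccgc
These letters were in 8 of 30 windows of the target list (26.7%, 23 of 30 genes matched) and in 10.2% of all windows.

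The regulators of these targets differed in both directions. Bach1 had 2499, 2151 and 2452 reads in Hepa1 and 1639, 1694 and 1688 in MEFs (-0.14 ± 0.0371). Which part of the gene was deleted is not given in the sources used here, so these reads do not check the knockout. The small MAF genes named were higher in Hepa1: Maff had 1157, 1115 and 1103 reads in Hepa1 and 198, 201 and 199 in MEFs (-2.14 ± 0.0633), and Mafk† (-1.14 ± 0.0438) and Mafg (-1.16 ± 0.0327) differed by less. Bach2† had 325, 330 and 391 reads in Hepa1 and 49, 72 and 61 in MEFs (-2.17 ± 0.113). Nfe2l1 (0.30 ± 0.0305) and Cul3, the scaffold of the ligase that degrades NRF2 (0.50 ± 0.0322), were higher in MEFs, and both turned with library totals as the scale (-0.24 and -0.04). Of 10 listed regulators 9 were tested, 6 higher in Hepa1 and 3 in MEFs, or 8 and 0 with library totals.

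Iron genes were divided within a family. The STEAP family gene Steap1 had 963, 894 and 1007 reads in Hepa1 and 42, 40 and 31 in MEFs (-4.31 ± 0.0956). Its relative Steap2 had 0, 1 and 4 reads in Hepa1 and 1132, 1120 and 1190 in MEFs (9.66 ± 0.148, and 2918-fold higher without replicate 3 of both, counting interval 523 to 115321). Steap3 had 88, 93 and 83 reads in Hepa1 and 5288, 5123 and 5496 in MEFs (6.27 ± 0.0548). The copper ferroxidase gene Cp† was higher in all 3 Hepa1 libraries, with 13469, 13083 and 13271 reads in Hepa1 and 2500, 2554 and 2659 in MEFs (-2.01 ± 0.0322). Of 27 iron genes 23 were tested, 13 higher in Hepa1 and 9 in MEFs, and 2 had no read in any library.

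Genes of lipid peroxidation and its control were mostly higher in Hepa1, 15 of 22 tested (of 26 listed), with 7 higher in MEFs and a median of -0.84. Gpx4 had 1130, 1062 and 1106 reads in Hepa1 and 506, 544 and 548 in MEFs (-0.69 ± 0.0504). Por†, an oxidoreductase that feeds peroxidation, had 8773, 8637 and 9590 reads in Hepa1 and 1510, 1430 and 1781 in MEFs (-2.16 ± 0.0363). Gch1†, which makes the antioxidant tetrahydrobiopterin, had 345, 314 and 300 reads in Hepa1 and 15, 25 and 22 in MEFs (-3.59 ± 0.145). Genes known to feed and to limit peroxidation were thus both higher in Hepa1. Scd1, which makes monounsaturated fat, had 4081, 3686 and 4108 reads in Hepa1 and 435, 489 and 486 in MEFs (-2.72 ± 0.0426). The desaturase gene Fads1 was higher in MEFs, with 3373, 3136 and 3557 reads in Hepa1 and 4894, 5208 and 5125 in MEFs (0.95 ± 0.0324), and so was Dhcr7, which uses up the radical trap 7-dehydrocholesterol, with 169, 181 and 175 reads in Hepa1 and 466, 471 and 489 in MEFs (1.79 ± 0.0761).

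Genes that make serine and other amino acids were mostly higher in Hepa1, 24 of 29 tested, with 4 higher in MEFs (median -1.36). Psat1†, of the serine pathway, had 9375, 8913 and 9715 reads in Hepa1 and 941, 948 and 1045 in MEFs (-2.90 ± 0.0353). Slc7a1, a carrier of arginine, had 11164, 10377 and 11861 reads in Hepa1 and 856, 892 and 1000 in MEFs (-3.25 ± 0.0371). Cth, which makes cysteine, had 205, 205 and 222 reads in Hepa1 and 13, 16 and 9 in MEFs (-3.69 ± 0.179). All 3 were higher in every Hepa1 library. The proline enzyme gene Pycr1 was higher in MEFs, with 642, 624 and 663 reads in Hepa1 and 763, 825 and 867 in MEFs (0.70 ± 0.0511).

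Nuclear genes of the respiratory chain differed by small amounts. Of 30 genes, all tested, 23 were higher in Hepa1 and 4 in MEFs, with a median of -0.51 after -0.06 in control medium. The gap of 27 changed towards Hepa1 and that of 0 towards MEFs. Cox4i1†, a subunit of the last complex, had 12629, 12173 and 13082 reads in Hepa1 and 4070, 3920 and 4583 in MEFs (-1.24 ± 0.0313). With library totals as the scale all 30 were called higher in Hepa1, which turned Ndufs3† (0.31 to -0.23) and Sdha† (0.17 to -0.37).

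Of 40 ribosomal protein genes, whose pseudogene copies make their reads uncertain, 30 were higher in Hepa1 and 7 in MEFs (32 and 3 with library totals), with a median of -0.85. Rps14† had 17654, 16626 and 17748 reads in Hepa1 and 3176, 3243 and 3429 in MEFs (-2.05 ± 0.0315). Of 22 genes of protein folding in the endoplasmic reticulum 15 were higher in Hepa1 and 6 in MEFs. The chaperone gene Hspa5 had 112815, 103724 and 114884 reads in Hepa1 and 25261, 26079 and 28347 in MEFs (-1.70 ± 0.0366), and Sel1l, of the degradation machinery, was higher in MEFs (0.92 ± 0.0303).

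Glycolysis and hypoxia genes were mostly higher in Hepa1, 18 of 30 tested, with 9 higher in MEFs. The enolase gene Eno3 had 4939, 4851 and 4829 reads in Hepa1 and 42, 38 and 58 in MEFs (-6.37 ± 0.0663). Another enolase gene, Eno2, had 3, 2 and 3 reads in Hepa1 and 510, 542 and 603 in MEFs (7.97 ± 0.168). These enolase genes thus differed in opposite directions. Egln3, an oxygen-sensing hydroxylase, had 1658, 1565 and 1673 reads in Hepa1 and 48, 32 and 53 in MEFs (-4.84 ± 0.0817). The glucose carrier gene Slc2a3 had 937, 893 and 996 reads in Hepa1 and 59, 69 and 75 in MEFs (-3.44 ± 0.0831). Ldhb, a lactate dehydrogenase chain, had no read in Hepa1 and 721, 676 and 787 in MEFs (at least 930.4-fold higher in MEFs).

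Lipid synthesis genes had no single direction. Of 24 cholesterol synthesis genes 23 were tested, 15 higher in MEFs and 5 in Hepa1, but with library totals as the scale 9 were higher in MEFs and 12 in Hepa1 and the median went from 0.37 to -0.17. Insig1, a brake on SREBP, was higher in MEFs on either scale (1.54 ± 0.0495). Of 36 fatty acid genes 31 were tested, 16 higher in MEFs and 13 in Hepa1, or 9 and 19 with library totals, where the median went from 0.15 to -0.39. The lipid droplet gene Plin2 had 13602, 12736 and 13277 reads in Hepa1 and 1268, 1336 and 1426 in MEFs (-2.94 ± 0.0343). Its relative Plin4† had 2, 2 and 3 reads in Hepa1 and 2384, 2283 and 2560 in MEFs (10.28 ± 0.11).

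Interferon-induced genes were called 15 higher in MEFs and 15 higher in Hepa1 of 35 tested, or 12 and 20 with library totals as the scale. The oligoadenylate synthetase gene Oas2† had 415, 328 and 454 reads in Hepa1 and 7, 6 and 7 in MEFs (-5.53 ± 0.180). Oas3 had 154, 113 and 172 reads in Hepa1 and no read in MEFs (at least 115-fold higher in Hepa1). Rsad2, an antiviral enzyme, had 196, 116 and 214 reads in Hepa1 and 3, 1 and 7 in MEFs (-5.18 ± 0.280, and -5.84 without replicate 3 of both). Replicate 2 was the lowest Hepa1 library for these 3 genes. Ifit3 was higher in MEFs, with 12, 12 and 15 reads in Hepa1 and 222, 236 and 244 in MEFs (4.51 ± 0.161), and a close relative makes its reads uncertain. The median went from 0.77 in control to -0.06 in ferroptotic medium, with 19 gaps changed towards Hepa1 and 4 towards MEFs.

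Of 16 class I antigen presentation genes tested 7 were higher in MEFs and 8 in Hepa1 (4 and 10 with library totals). H2-K1, whose close relatives make its reads uncertain, had 54, 57 and 52 reads in Hepa1 and 4165, 3947 and 4472 in MEFs (6.62 ± 0.0615), the reverse of H2-Q1. The class I regulator Nlrc5† had 22, 17 and 25 reads in Hepa1 and 117, 108 and 121 in MEFs (2.78 ± 0.174). Psmb8†, a subunit of the immunoproteasome, was higher in Hepa1 (-1.14 ± 0.0955).

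Genes of the NF-kB response, chemokines included, were on both sides. Of 34 listed genes 26 were tested, 14 higher in MEFs and 11 in Hepa1, which became 12 and 14 with library totals, where the median went from 0.19 to -0.35. Cxcl12, a chemokine that holds stem cells in their niche, had 11, 15 and 217 reads in Hepa1 and 241149, 241786 and 259277 in MEFs (11.93 ± 0.140, and 14.54 without replicate 3 of both). The adhesion gene Icam1† had 407, 350 and 424 reads in Hepa1 and 3066, 3008 and 3322 in MEFs (3.35 ± 0.0442). Cx3cl1, a membrane-bound chemokine, had 263, 232 and 257 reads in Hepa1 and 4135, 4259 and 4416 in MEFs (4.44 ± 0.0457). These were higher in all 3 MEF libraries. Ccl2†, which attracts monocytes, had 263, 245 and 224 reads in Hepa1 and 19, 22 and 28 in MEFs (-3.05 ± 0.151). The cytokine gene Lif had 465, 395 and 438 reads in Hepa1 and 48, 50 and 58 in MEFs (-2.70 ± 0.106).

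Complement genes were divided between components. C3, the central component, had 7358, 6953 and 7594 reads in Hepa1 and 279, 334 and 333 in MEFs (-4.18 ± 0.0439). C2†, of the classical pathway, had 847, 778 and 849 reads in Hepa1 and 4, 5 and 6 in MEFs (-6.98 ± 0.144). Serping1, the C1 inhibitor, had 0, 1 and 4 reads in Hepa1 and 993, 994 and 1066 in MEFs (9.49 ± 0.153, and 2575-fold higher without replicate 3 of both, counting interval 462 to 101756). The components C2 and C3 were higher in all Hepa1 libraries and this inhibitor in all MEF libraries. Of 28 listed genes 15 were tested, 9 higher in MEFs and 4 in Hepa1, and 8 had no read in any library. Lbp, which binds bacterial lipopolysaccharide, had 12731, 12692 and 13798 reads in Hepa1 and 354, 387 and 447 in MEFs (-4.69 ± 0.0433).

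Markers of other cell types were counted in both cultures. Summed over 16 macrophage markers, the level was 29.8 to 30.9 CPM in Hepa1 and 12.9 to 14.5 CPM in MEFs, and Itgam, Ptprc, Tyrobp, Marco, Clec4f and Aif1 had no read in any library. Endothelial markers (15 genes) summed to 71.6 to 73.1 CPM in Hepa1 and 121 to 125 CPM in MEFs, with 5 of them at 0 in all libraries. Keratinocyte markers (21 genes) summed to 202 to 205 CPM and 22.7 to 23.7 CPM, with 5 at 0 in all. Muscle markers (20 genes) summed to 31.3 to 34.7 CPM and 7.45 to 8.86 CPM, and neural and Schwann markers (16 genes) to 65.7 to 69.3 CPM and 96.5 to 102 CPM. In Hepa1 most of the summed level came from a single member in each of the endothelial, keratinocyte, muscle (Des) and neural (Erbb3) lists. These sums are therefore no measure of whole marker sets. The part of these markers in the results was not tested. Xist† and the Y-linked Kdm5d separated the cultures. Xist had 3431, 2986 and 3642 reads in Hepa1 and 5, 0 and 9 in MEFs (-9.10 ± 0.115, and -9.89 without replicate 3 of both). Kdm5d had no read in Hepa1 and 859, 839 and 926 in MEFs (at least 1118-fold higher in MEFs). Of 14 sex-linked genes 9 were tested, 4 higher in MEFs and 5 in Hepa1 (median -0.20). Xist and Kdm5d divided the libraries as cell type did, so sex and cell type cannot be told apart.

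The difference between the cell types in ferroptotic medium was for most genes in the same direction as in control medium. In control medium 12930 of 14800 genes were called (87.4%), 45.9% higher in MEFs and 41.4% higher in Hepa1. Of 11904 genes called in both media 11391 had the same direction and 513 the opposite one, and 6 were at least 2-fold in opposite directions. The 2 comparisons use different libraries. The change of the gap, tested as an interaction term in a fit of all 12 libraries, was called for 6911 of 15627 genes (44.2%), 3267 towards MEFs (20.9%) and 3644 towards Hepa1 (23.3%), and at least 2-fold for 497 (3.18%) and 733 (4.69%), together 7.87%. Without replicate 3 of both cell types 6113 were called, 5947 of them among the 6911.

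**Figure D5:**
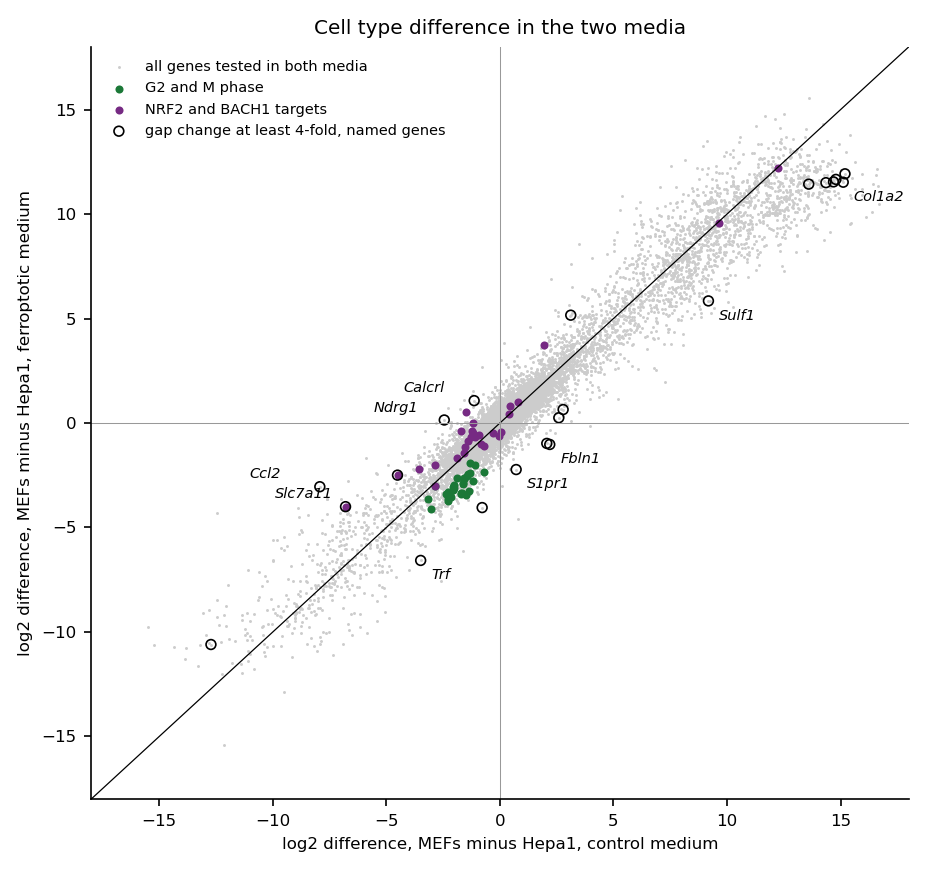
Log2 difference between the cell types (MEFs minus Hepa1) in control medium (horizontal) and in ferroptotic medium (vertical), 1 point a gene, with the diagonal marking equal differences; G2 and M genes are green, NRF2 and BACH1 targets purple, and circles are 21 named genes whose gap changed at least 4-fold. The median of the G2 and M genes goes from -1.72 to -3.08 and that of the NRF2 and BACH1 targets from -1.19 to -0.57.

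Mitotic genes had the largest share of gaps changed towards Hepa1 among the 47 lists, 28 of 30, with 0 towards MEFs and a median change of -1.11 (-1.09 without replicate 3 of both, with 28 called again). The median change from control to ferroptotic medium was 2.45 in Hepa1 and 1.05 in MEFs. For Aurka the gap changed by -1.43 ± 0.225 (adjusted p 8.18e-07), for Birc5 by -1.33 ± 0.268 (5.64e-05) and for Ube2c by -1.11 ± 0.257 (0.000397). That of Cenpe, at -0.47 ± 0.213, did not pass (0.0718).

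Single genes with large changes of the gap were of several kinds. Fbln1, a matrix fibulin, and Calcrl, a receptor of calcitonin-family peptides, exchanged sides. Fbln1 had 1011, 971 and 1011 reads in Hepa1 and 401, 376 and 373 in MEFs (-1.03 ± 0.0564), after 2.20 in control medium. Calcrl had 219, 244 and 248 reads in Hepa1 and 383, 416 and 371 in MEFs (1.07 ± 0.0780), after -1.13. Gpam†, which starts triglyceride synthesis, went from 2.06 in control to -0.97 ± 0.0402 in ferroptotic medium, with 2.91 from the medium in Hepa1 and -0.13 in MEFs. Tgm2†, which crosslinks proteins, went from -0.78 to -4.05 ± 0.0421, with -0.19 in Hepa1 and -3.46 in MEFs. The first of these moved mainly in Hepa1 and the second mainly in MEFs. In the other direction, the immediate early factor Egr1 went from 0.05 to 2.03 ± 0.0367 and the circadian repressor Bhlhe40† from -1.19 to 0.78 ± 0.0386.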

How the data were processed

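RNA sequencing counts of 55487 genes in 12 libraries were used, 6 of them for the main comparison. Libraries were made with the NEBNext Ultra II RNA kit from total RNA, per the labels. The authors deposited raw counts per gene on GRCm38/mm10. Per the submitters' processing notes they used HTSeq 0.9.1, the aligner STAR 2.7.10a, and, to trim and check reads, Trimmomatic 0.39 and FastQC 0.11.9. Neither the release of the annotation nor how strand was set is given in the sources used here. The 5 summary lines of HTSeq were set apart (reads on no feature 2.30% to 2.52%, ambiguous reads 3.66% to 4.00%). GENCODE M21 named 55227 of the 55487 identifiers, and 260 kept the identifier alone.

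Genes with enough reads (edgeR's filterByExpr) were scaled by TMM and tested with edgeR 4.0.16 (quasi-likelihood F test, R 4.3.3, limma 3.58.1), MEFs against Hepa1 in the 6 libraries, with Benjamini-Hochberg adjustment over all genes tested and a threshold of 0.05. The change of the gap was the interaction term of a fit of all 12 libraries. CPM are TMM-scaled, and TPM divides reads by exon length. A test on simulated data with known changes was run first. Alternatives were other scalings, filters, DESeq2 1.42.0, limma-voom, fits with other samples or a replicate block, and each replicate left out. The biological coefficient of variation was 2.28%. No pair of replicates agreed within sampling noise, so none was merged as 1 library deposited more than once; whether they were separate cultures is not given.

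Genes were named by rule: a fixed set, the largest differences in each direction, the largest with both cell types expressing the gene, the largest of each list with the members that went the other way, the largest changes of the gap, and genes with opposite directions in the media. Genes outside it are said to be chosen after their values were seen, apart from list members named only for having no read in any library. The 3 top TPM genes per cell type were taken by rank. Some single genes that the rule named are not reported here. The comparison and the 47 gene lists were chosen with earlier results of these data known.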

Additional observations from a re-analysis of the deposited data

Results flagged for a closer look

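The interaction term between cell type and medium marked 21 of the named genes reported here, those with over 20 reads in each cell type whose gap between MEFs and Hepa1 differed at least 4-fold between ferroptotic and control medium. Values are log2 changes, positive towards MEFs. Chemokine Ccl2 changed by 4.88, the cystine transporter Slc7a11 by 2.79, the stress gene Ndrg1 by 2.60, Calcrl by 2.20, Krt18 by 2.12, the collagen Col8a1 by 2.04 and the ferritin chain Ftl1 by 2.01. Towards Hepa1, Col1a2 changed by -3.59, Sulf1, which edits heparan sulfate, by -3.34, Cxcl12 by -3.27, Tgm2 by -3.27, Fbln1 by -3.22, the collagen receptor Mrc2 by -3.15, Igfbp2 by -3.14, Trf by -3.09, Gpam by -3.04, S1pr1 by -2.94, Serpinh1 by -2.86, Hacd4 by -2.34, the myosin Myh10 by -2.17 and Pdk4, which limits glucose oxidation, by -2.14.

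Replicate 3 of both cell types decided 7 of these values. Without it the changes were -0.02 for Igfbp2 (edgeR adjusted p 1), -0.62 for Myh10 (0.417), -0.66 for Cxcl12 (0.207), -0.86 for Krt18 (0.407), -0.90 for Col1a2 (0.0152), -0.98 for Serpinh1 (0.2) and -1.82 for Mrc2 (0.0252), and that of Krt18 had the opposite sign. Fbln1 (-3.17), Sulf1 (-3.31), Trf (-2.95) and Col8a1 (2.04) moved little without it.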

How the results depend on the processing

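The calls of the comparison moved with the scale. Library totals alone gave 4964 genes higher in MEFs and 8902 in Hepa1 (3251 and 5010 at least 2-fold), where 11358 of 12551 shared calls kept their direction. Other scalings, filters and tools gave 6614 to 8621 genes higher in MEFs and 6017 to 7205 in Hepa1. A test against a 2-fold difference (glmTreat) called 3869 and 2391. Leaving out 1 library, or replicate 3 of both cell types, gave 7123 to 7336 and 6253 to 6448 calls, 4272 to 4451 and 2831 to 2913 at least 2-fold, and 3000 to 3182 and 3113 to 3578 changes of the gap. With library totals 10 differences turned. Of these 4 were not called in edgeR's test: Nqo1 -0.0224 (adjusted p 0.754), Cul3 -0.0393 (0.189), Tyms -0.15 (0.0702) and Egfl7 -0.11 (0.406). The other 6 were called towards Hepa1: Ndrg1 -0.40, Ndufs3 -0.23, Sdha -0.37, Hacd4 -0.29, Atf5 -0.19 and Nfe2l1 -0.24. So did the medians of cholesterol (-0.17), fatty acid (-0.39), NF-kB (-0.35) and housekeeping genes (-0.44). Leaving out 1 library, the interferon median ranged from -0.263 to 0.00838 (above 0 without Hepa1 replicate 1), the change of the gap of Igfbp2 from -3.69 to 0.00769 (above 0 without Hepa1 replicate 3) and that of Krt18 from -0.853 to 2.64 (below 0 without MEF replicate 3, and -0.86 without replicate 3 of both). Apart from these 10, 4625 repeated differences of single genes kept direction and call and 4 kept the direction and lost the call.

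The trace of Hepa1 replicate 3 was 0.180% with markers at 1000 CPM or more, where no Hepa1 marker was left for the MEF libraries. With markers that had 0 reads in the other cell type in control medium it was 0.139%, that of Hepa1 replicate 2 0.00895% that of MEF replicate 1 0.0244% and that of MEF replicate 2 0%. Same-numbered deviations correlated at 0.0107, -0.0613 and -0.0299 over 7962 genes with at least 10 CPM in both cell types. With 3 libraries per cell type, and without the genes that carried the traces, this cannot decide whether replicate numbers pair the libraries. With a replicate block 7110 genes were higher in MEFs and 6344 in Hepa1, 13452 of these calls shared with the fit without it, and the gap changed for 3284 and 3670. Genes near 0 reads in 1 cell type are limited by depth and by the traces, and 3 libraries per cell type limit the rest.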

Other observations

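Genes of cartilage, bone and fat precursors also separated the cultures. Of 26 cartilage and bone genes 22 were tested, 18 higher in MEFs and 4 in Hepa1, with a median of 7.70 (7.62 with genes at 0 reads set at their bounds). Phex, a peptidase of bone mineral balance, had no read in Hepa1 and 1170, 1422 and 1263 in MEFs (at least 1642-fold higher in MEFs). Spp1, osteopontin, had 1054, 965 and 1050 reads in Hepa1 and 28486, 28674 and 30713 in MEFs (5.19 ± 0.0397). The factor Sox5 was among the exceptions, with 858, 785 and 882 reads in Hepa1 and 100, 89 and 91 in MEFs (-2.82 ± 0.0794). Of 19 adipogenic genes 13 were tested, 10 higher in MEFs and 3 in Hepa1. Zfp423, a factor of fat precursors, had no read in Hepa1 and 503, 525 and 543 in MEFs (at least 669-fold higher in MEFs). The fatty acid carrier Fabp4 had no read in Hepa1 and 951, 1077 and 1223 in MEFs (at least 1385-fold higher in MEFs), and the lipase gene Lpl was higher in Hepa1, with 14326, 13958 and 14728 reads in Hepa1 and 3342, 3553 and 3565 in MEFs (-1.69 ± 0.0317).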
